A study of Mus musculus with 36 samples.

Results

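Genes of amyloid precursor processing and clearance were followed across all 36 libraries of a mouse hippocampus RNA sequencing study. They were taken by symbol from the deposited table, 9 of its 36172 gene rows: App, Adam10, Bace1, Psen2, Ncstn, Aph1a, Sorl1, Mme and Ide. The mice were Cx3cr1-NuTRAP animals, in which tamoxifen-inducible cre, driven from the microglial and macrophage gene Cx3cr1, turns on ribosomes carrying a fluorescent tag. Whole-tissue RNA was kept as input, and ribosome-bound RNA of the tagged cells was pulled down from the same homogenate with an antibody to the tag (translating ribosome affinity purification, TRAP). The design compared animals in which cre had been induced early or late in life.

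All animals carried the same genotype, and the labels name no strain. The groups were 10 inputs of young early-induced mice aged 6 months (5 females, 5 males), 12 inputs of old early-induced mice aged 22 months (7 females, 5 males), 7 inputs of old late-induced mice aged 22 months (5 females, 2 males) and 7 TRAP libraries of those same 7 old late-induced mice. TRAP libraries of the early-induced groups were not analysed here. Cre under Cx3cr1 also acts in border macrophages, so the pulldown is not restricted to microglia. Animals without the tag were not analysed here.

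The amyloid precursor protein, encoded by App, is cut either by an alpha-secretase such as Adam10, which destroys the amyloid beta stretch, or by the beta-secretase Bace1 followed by gamma-secretase, which releases amyloid beta. Gamma-secretase is a membrane complex of a presenilin such as Psen2, nicastrin (Ncstn), an Aph1 subunit and Pen-2 (Psenen). Sorl1 is a sorting receptor that steers the precursor away from the endosomes where it is cut, and Mme (neprilysin) and Ide (insulin-degrading enzyme) are proteases that degrade amyloid beta. In the brain the precursor and Bace1 are made largely by neurons, while microglia take up amyloid and secrete or contain several degrading enzymes.

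Promoter sequence is given for 3 members, Adam10 and Psen2, which were higher in TRAP, and Sorl1, which was not called. Ncstn, also higher in TRAP, is described without its sequence, and its window overlaps an exon of Copa. Each run covers the 200 bases from 250 to 51 bases before a gene start listed by RefSeq on GRCm38.p6, 5′ to 3′ on the strand of the gene. Capitals mark AGGAAG, the core bound by PU.1 and related ETS factors of myeloid cells, and GGGCGG, the GC box bound by Sp1-type factors, each on either strand.

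Adam10 (chr9:70678732-70678931, plus strand): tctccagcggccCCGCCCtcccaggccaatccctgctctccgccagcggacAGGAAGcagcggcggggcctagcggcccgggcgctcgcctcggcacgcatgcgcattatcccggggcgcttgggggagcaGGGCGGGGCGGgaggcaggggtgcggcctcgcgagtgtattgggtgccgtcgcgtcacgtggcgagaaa

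Psen2 (chr1:180256351-180256550, minus strand): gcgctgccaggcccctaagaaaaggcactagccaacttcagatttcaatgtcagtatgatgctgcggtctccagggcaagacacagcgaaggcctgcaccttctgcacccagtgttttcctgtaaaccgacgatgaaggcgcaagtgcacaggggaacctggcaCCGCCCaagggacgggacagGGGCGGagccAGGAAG

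Sorl1 (chr9:42124348-42124547, minus strand): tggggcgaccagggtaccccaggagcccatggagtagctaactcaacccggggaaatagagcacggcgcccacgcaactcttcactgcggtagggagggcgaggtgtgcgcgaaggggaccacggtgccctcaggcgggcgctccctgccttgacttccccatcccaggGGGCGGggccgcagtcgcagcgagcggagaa

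The Adam10 window holds 1 AGGAAG match and 3 GGGCGG matches, of which the last 2 share a base. In the printed Psen2 window, which overlaps an exon of the non-coding gene Gm31728, there are 1 AGGAAG and 2 GGGCGG matches. The window of another listed Psen2 start (chr1:180246001-180246200) holds 1 AGGAAG and no GGGCGG. The printed Sorl1 window holds 1 GGGCGG match and no AGGAAG, and that of another listed Sorl1 start (chr9:42077264-42077463) holds neither. Of 32851 windows of this length, 23.9% hold AGGAAG and 24.6% hold GGGCGG, so a match is common and is given only as a description. A longer ETS core, CCGGAAG, which 4.0% of the windows hold, was in none of the 3 printed windows. The Ncstn window (chr1:172082800-172082999) holds 1 CCGGAAG and neither AGGAAG nor GGGCGG, so no motif searched was in the windows of all 3 members higher in TRAP. The windows of App, Ide, Aph1a and Mme hold no AGGAAG, and Bace1 was not matched.

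Levels are given as CPM, counts scaled to a common library size after TMM normalization, where library totals were 12.9 to 20.4 M estimated counts. Fold changes are log2 values from edgeR's quasi-likelihood test with Benjamini-Hochberg adjustment over all genes tested, and a gene was called when its adjusted p was under 0.05. Of the 9 members, 8 passed the filter on low counts in every comparison. Aph1a (identifier 226548, chromosome 3, 95893996 to 95898303), a gamma-secretase subunit, was listed at 0 in all 36 libraries. So were Hnrnpr, Supt5h, Supt6h, Adsl and Crk, which are used by nearly every cell and were picked after their values were seen, and 3476 of 22013 protein-coding rows in all. The 0 of Aph1a therefore gives no level, and no test was made.

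The pulldown was checked with marker lists. Summed CPM of 19 microglial markers ran from 896 to 1292 across old late-induced inputs and from 16122 to 25799 in TRAP, and all 19 were called higher in TRAP, as were all 8 border macrophage markers and all 9 endothelial markers. All 12 oligodendrocyte markers were lower in TRAP, with sums of 1379 to 3417 against 4418 to 7299 CPM. Neuronal markers summed to 9116 to 11175 CPM in TRAP against 11190 to 12118 CPM in input, with 5 of 11 tested markers called lower and Mtap2 (Map2) listed at 0 in all libraries. RNA of neurons was therefore abundant in the TRAP libraries, and its part in the TRAP values below was not tested. In these bulk libraries fewer cells of a type and less RNA per cell cannot be told apart.

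**Figure D1:**
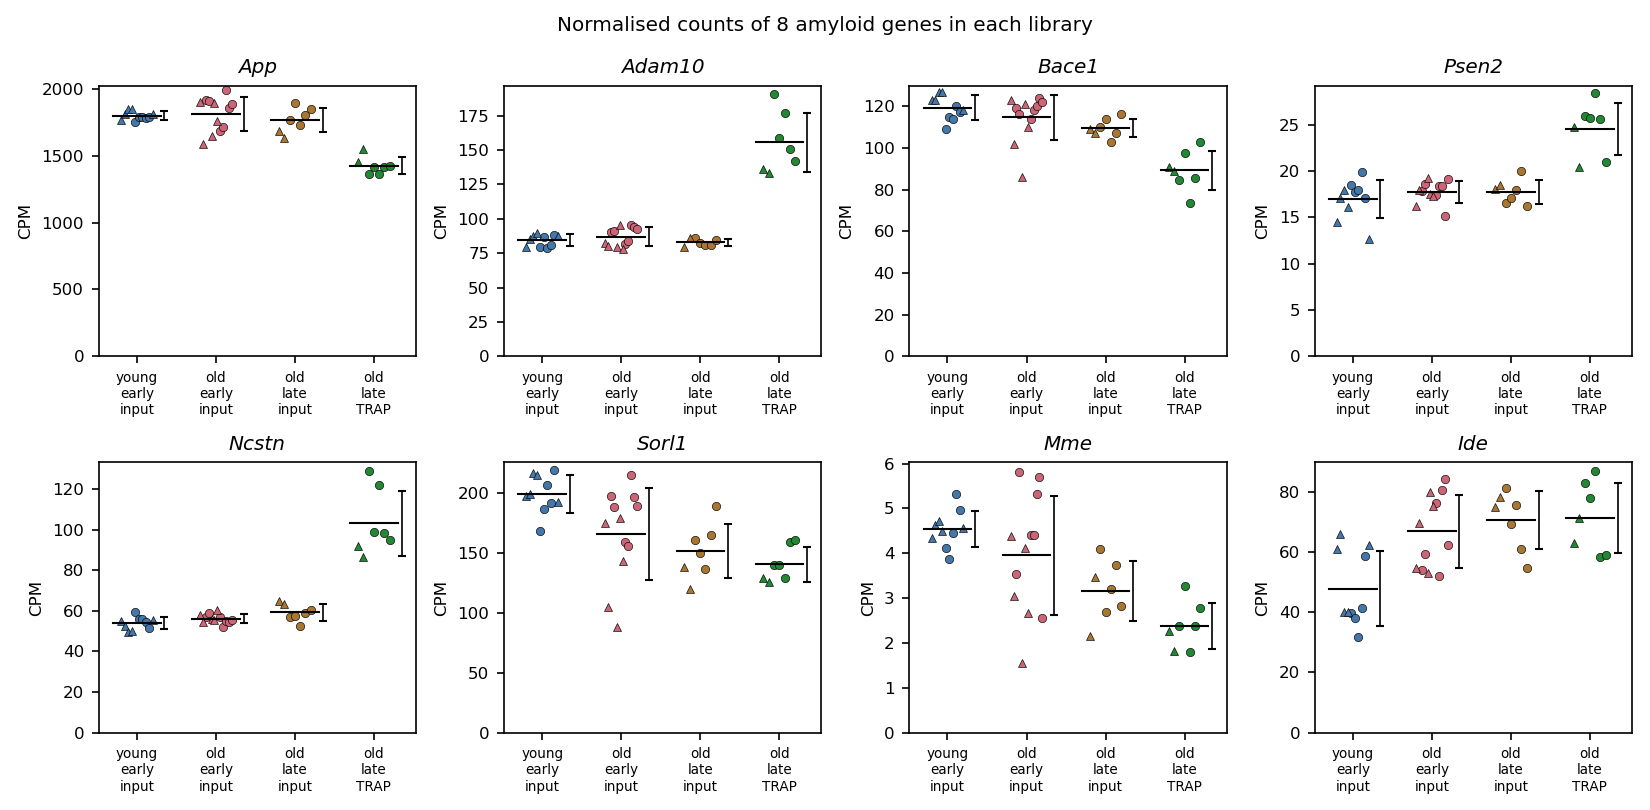
CPM of the 8 members with counts in each of the 36 libraries (y axis, from 0), by group. Circles are females and triangles males, the horizontal line is the group mean and the bar beside it 1 SD. Adam10, Ncstn and Psen2 lie higher and App and Bace1 lower in TRAP with no overlap with the paired inputs. For Bace1 the lowest input and the highest TRAP library are both at 103 CPM after rounding. The share of all genes without overlap was not counted. Sorl1 spreads widely across old early-induced inputs, and Ide falls into separate levels in the young inputs.

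App had by far the highest level of the members. Per kb of exon it averaged 138 ± 2.47 CPM in the young inputs, against 18.8 ± 0.922 for Bace1, 17.6 ± 1.41 for Sorl1, 17.2 ± 0.881 for Adam10 and 13.6 ± 0.76 for Ncstn (SD, n = 10). Ide at 6.37 ± 1.67, Psen2 at 3.91 ± 0.477 and Mme at 0.394 ± 0.0353 CPM per kb were lowest. Neighbours in this order from Bace1 to Adam10 differed by less than the sum of their SDs, whereas App, Psen2 and Mme were set apart from their neighbours. In TRAP the order changed at Adam10 (31.6 ± 4.44 CPM per kb) and Ncstn (25.9 ± 4.03), which stood above Bace1 (14 ± 1.49) and Sorl1 (12.4 ± 1.27; SD, n = 7).

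The comparison of TRAP with input asked which of these messages were held more by tagged cells than by the whole hippocampus of the same animals. The alpha-secretase Adam10 and the gamma-secretase subunits Ncstn and Psen2 were higher in TRAP, and the precursor App, the beta-secretase Bace1 and the protease Mme were lower. Sorl1 and Ide were not called. Thus 6 of 8 members tested were called, 3 in each direction, beside 59.2% of all 14596 genes tested (30.4% higher and 28.8% lower), so a call alone sets the members little apart. Their median log2 fold change was -0.05 and that of all genes tested -0.02. The all-gene split rests on the scaling, with 4442 higher and 4198 lower calls under TMM, 3280 and 6372 under upper quartile scaling (median of all genes -0.16) and 3564 and 5748 with total counts only (median -0.13). The 6 members called kept their direction and call under both. The main fit did not pair the libraries of the same animal. With the animal as a block, Mme was not called (edgeR adjusted p 0.0741) and Sorl1 was called lower (edgeR adjusted p 0.0382).

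App (identifier 11820, chromosome 16, 84954436 to 85173707, minus strand) ran from 1633 to 1895 CPM across old late-induced inputs (median 1768) and from 1364 to 1552 CPM in TRAP (median 1413). Every TRAP library lay below every input of the group. How often all genes were separated in this way was not counted, here or for the members below. App was lower by 0.32 on the log2 scale in the fit (log2 fold change -0.32 ± 0.04 SE, edgeR adjusted p 1.16e-05), and the ratio of TRAP to input averaged 0.808 over the 7 animals. An antisense gene, Gm10791, overlaps App but held only 784 counts over all libraries.

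Adam10 (identifier 11487, chromosome 9, 70679001 to 70780229, plus strand), the main alpha-secretase of neurons, ran from 79.3 to 85.9 CPM in input (median 82.7) and from 133 to 191 CPM in TRAP (median 151). The lowest TRAP library was above the highest input. Its log2 fold change was 0.89 ± 0.07 (SE, edgeR adjusted p 4.9e-09), the largest of the members, and the per-animal values ran from 0.62 to 1.16. Adam17, another enzyme with alpha-secretase activity, which also sheds tumour necrosis factor, was higher in TRAP too, from 16.5 ± 1.7 to 87.6 ± 25.8 CPM (SD, n = 7 each; log2 fold change 2.38 ± 0.14 SE, edgeR adjusted p 1.68e-10).

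Bace1 (identifier 23821, chromosome 9, 45838529 to 45862484, plus strand) moved the other way. Input libraries ran from 103 to 116 CPM (median 109) and TRAP libraries from 73.5 to 103 CPM (median 88.9). Bace1 was lower in TRAP in 7 of 7 animals, with a log2 difference of -0.30 ± 0.06 (SE, edgeR adjusted p 0.000591). The shift was close in size to that of App, and the difference between the genes was not tested.

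Of gamma-secretase, Ncstn (identifier 59287, chromosome 1, 172066013 to 172082749, minus strand), which holds the substrate for the complex, ran from 52.6 to 65 CPM in input (median 59.1) and from 86.7 to 129 CPM in TRAP (median 98.2). Psen2 (identifier 19165, chromosome 1, 180227004 to 180256300, minus strand), a catalytic subunit, ran from 16.2 to 20 CPM in input (median 17.9) and from 20.4 to 28.4 CPM in TRAP (median 25.6). Neither overlapped between the fractions, although the highest Psen2 input and the lowest TRAP library were close. The log2 fold changes were 0.79 ± 0.08 for Ncstn (edgeR adjusted p 5.2e-07) and 0.46 ± 0.08 for Psen2 (edgeR adjusted p 0.000127). The 5′ end of Ncstn overlaps Copa on the opposite strand, a gene with 127518 counts over all libraries, and strand handling is not given in the sources used here, so reads of the 2 genes there cannot be told apart.

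Other subunits, named after their values were seen, did not all follow. Psenen (log2 fold change 0.79, edgeR adjusted p 7.63e-08) was higher in TRAP. Aph1b (-0.53, edgeR adjusted p 4.16e-05) and Aph1c (-0.42, edgeR adjusted p 0.00283) were lower. Aph1b and Aph1c are near-identical copies and Aph1a was listed at 0, so the values of the Aph1 genes are uncertain.

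Mme (identifier 17380, chromosome 3, 63295872 to 63382231, plus strand) was the member with the fewest counts, 36 to 73 per input library and 23 to 55 per TRAP library. Its level ran from 2.15 to 4.10 CPM in input (median 3.21) and from 1.81 to 3.27 CPM in TRAP (median 2.37), and the ranges overlapped. Mme was lower in TRAP in 5 of 7 animals (log2 fold change -0.41 ± 0.17 SE, edgeR adjusted p 0.0499). The call sat at the threshold. It was lost when the animal entered the fit as a block (adjusted p 0.0741 in edgeR) and in 10 of 14 fits that left out 1 library, for example without input replicate 2 (-0.33, edgeR adjusted p 0.121).

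Ide (identifier 15925, chromosome 19, 37268741 to 37330613, minus strand) did not differ detectably between the fractions. It ran from 54.5 to 81.1 CPM in input (median 74.8) and from 58.2 to 86.9 CPM in TRAP (median 71.4), with 4 animals higher and 3 lower in TRAP. The log2 fold change was 0.00 ± 0.11 (SE, edgeR adjusted p 0.981), with a 95% interval of -0.20 to 0.21. The animals with the lowest Ide inputs, replicates 6 and 7 at 61.0 and 54.5 CPM, also had the lowest TRAP values, 58.2 and 58.8 CPM.

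Sorl1 (identifier 20660, chromosome 9, 41968489 to 42124289, minus strand) ran from 120 to 189 CPM in input (median 150) and from 126 to 161 CPM in TRAP (median 140). The ranges overlapped, and 6 of 7 animals were lower in TRAP. The log2 fold change was -0.11 ± 0.07 (SE, edgeR adjusted p 0.186). With the animal as a block, which removes differences between animals, Sorl1 was called lower (edgeR adjusted p 0.0382), and it was also called with upper quartile scaling (-0.25, edgeR adjusted p 0.00516) and with total counts only (-0.22, edgeR adjusted p 0.0207).

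**Figure D2:**
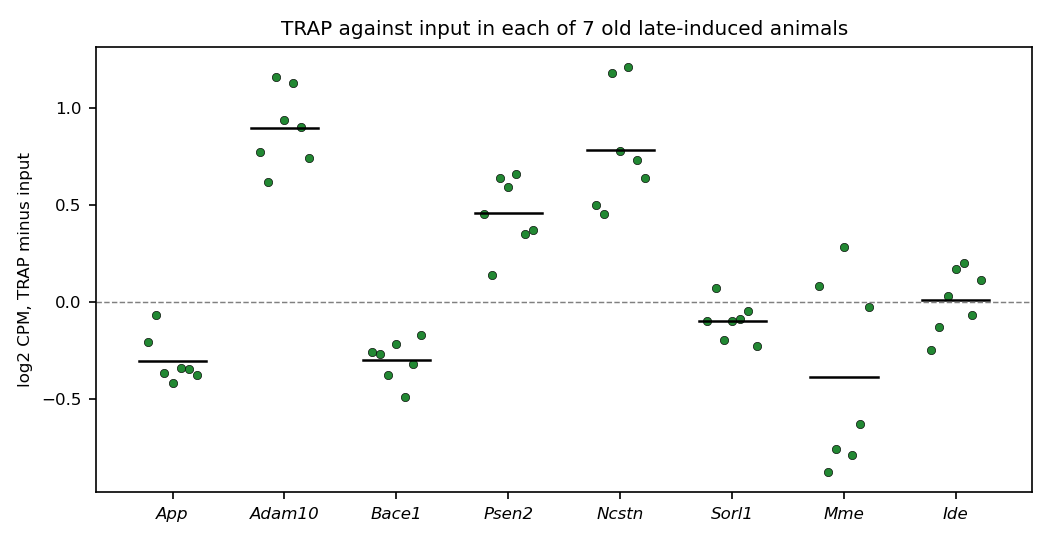
Difference in log2 CPM between TRAP and input (y axis) for each of the 7 old late-induced animals, by gene (x axis), where points are animals and lines means. Adam10, Ncstn and Psen2 are above 0 and App and Bace1 below 0 in 7 of 7 animals, while Ide lies on both sides of 0. The share of all genes with the same sign in 7 of 7 animals was not counted.

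Age was compared between whole-tissue inputs. Between old early-induced and young inputs, Ide rose and Sorl1 fell, and the other 6 members tested were not called. The 2 calls of 8 stood beside 25.6% of all 14948 genes tested (13% higher, 12.6% lower). Between old late-induced and young inputs, Ide and Ncstn rose and Sorl1 and Mme fell. The 4 calls of 8 stood beside 34.5% of all genes tested (17% higher, 17.5% lower). Both comparisons used the same 10 young libraries, so they are not independent of each other. Library indexes in the sample sheet ran from 1 to 23 in the old early-induced group, from 25 to 38 in the old late-induced group and from 39 to 57 in the young group, so index and group cannot be told apart.

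App itself did not pass the test with age. It ran from 1753 to 1853 CPM in the young inputs (median 1789), from 1589 to 1990 CPM across old early-induced inputs (median 1871) and from 1633 to 1895 CPM across old late-induced inputs. Both old ranges enclosed the young one. The log2 fold changes were 0.02 with a 95% interval of -0.05 to 0.08 in early-induced and -0.02 with an interval of -0.09 to 0.05 in late-induced animals (edgeR adjusted p 0.769 and 0.663).

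The cutting enzymes shifted little. Adam10 averaged 84.5 ± 4.33 CPM across young (SD, n = 10), 87.1 ± 6.73 across old early-induced (SD, n = 12) and 82.9 ± 2.63 across old late-induced inputs (SD, n = 7), with log2 fold changes of 0.05 and -0.02 against young (edgeR adjusted p 0.343 and 0.766). Psen2 averaged 16.9 ± 2.07, 17.8 ± 1.2 and 17.8 ± 1.29 CPM in the same order, with a log2 fold change of 0.07 in both old groups (edgeR adjusted p 0.393 and 0.458). These differences were smaller than 1 SD of the young libraries.

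Bace1 ran from 109 to 127 CPM in young (median 119), from 85.8 to 124 CPM in old early-induced (median 119) and from 103 to 116 CPM across old late-induced inputs (median 109). In the late-induced group 4 of 7 libraries were below all young ones. The log2 fold changes were -0.05 ± 0.04 and -0.12 ± 0.05 (SE, edgeR adjusted p 0.446 and 0.0841). The late-induced difference was called in 4 fits with fewer libraries. These were the fit of only the 2 groups (edgeR adjusted p 0.0338) and those without old late-induced replicate 7 (0.0475), without old early-induced replicate 5 (0.0174) and without old early-induced replicates 2 and 5 (0.00775). The last was chosen after the values were seen. Over the 29 fits that each left out 1 library the edgeR adjusted p ran from 0.0174 to 0.141. In females only the late-induced value was -0.05 (edgeR adjusted p 0.422).

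Ncstn ran from 49.6 to 59.3 CPM in young (median 54.6), from 52.0 to 60.2 in old early-induced (median 55.8) and from 52.6 to 65 CPM across old late-induced inputs (median 59.1). The increase in late-induced animals was small, with 3 of 7 libraries above all young ones (log2 fold change 0.15 ± 0.04 SE, edgeR adjusted p 0.00588). Females alone gave 0.06, which was not called (edgeR adjusted p 0.439). In early-induced animals the log2 fold change was 0.07 ± 0.04 (edgeR adjusted p 0.178).

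Mme fell with age in the late-induced group. Young inputs ran from 3.87 to 5.31 CPM (median 4.53), and the old late-induced inputs from 2.15 to 4.10 CPM (median 3.21). Of the 7 old late-induced libraries 6 were below all young ones (log2 fold change -0.57 ± 0.17 SE, edgeR adjusted p 0.0118), and in females only the value was -0.44 (edgeR adjusted p 0.126). Old early-induced inputs spread from 1.56 to 5.81 CPM, below and above the whole young range, and were not called (-0.23 ± 0.15 SE, edgeR adjusted p 0.267).

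Sorl1 fell in both old groups. It ran from 168 to 219 CPM in the young inputs (median 198), from 87.9 to 215 CPM across old early-induced inputs (median 177) and from 120 to 189 CPM across old late-induced inputs (median 150). Of the old late-induced libraries 6 of 7, and of the old early-induced libraries 5 of 12, were below all young ones. The log2 fold changes were -0.29 ± 0.10 in early-induced (SE, edgeR adjusted p 0.0259) and -0.44 ± 0.11 in late-induced animals (SE, edgeR adjusted p 0.00337).

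The early-induced value of Sorl1 rested on few libraries. Old early-induced replicates 5 and 2, both males, were lowest at 87.9 and 105 CPM, and they had the highest summed CPM of blood markers in that group (2274 and 394, against 130 to 384 in the others). Without them the log2 fold change was -0.17 (edgeR adjusted p 0.068), an alternative chosen after the values were seen, and without young replicate 3 it was -0.27 (edgeR adjusted p 0.0502). In old early-induced females Sorl1 averaged 186 ± 21.3 CPM (SD, n = 7), against 194 ± 19.7 in young females (SD, n = 5), and the fit of females alone gave -0.06 (edgeR adjusted p 0.729). Old early-induced males averaged 138 ± 40.8 CPM and young males 204 ± 11 (SD, n = 5 each). Summed choroid plexus markers were 4191, 3829 and 2803 CPM in old early-induced males 5, 7 and 2 and 2538 CPM in female 8. No other library of that group exceeded 199 CPM. Sorl1 was at 87.9, 143 and 105 CPM in those males, against 175 and 179 CPM in males 1 and 6. Female 8 was at 159 CPM, but female 9, with a low choroid plexus sum, was at 156 CPM. The part of choroid plexus in the sex difference was not tested. The interaction of age and sex was -0.49 ± 0.18 (SE, edgeR adjusted p 0.234, unadjusted p 0.0115) and so was not called. In the late-induced group the fit of females alone gave -0.26, which was called (edgeR adjusted p 0.0402).

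Other cell types moved with these input groups. Summed microglial markers ran from 624 to 729 CPM in young, from 841 to 1010 in old early-induced and from 896 to 1292 CPM across old late-induced inputs, with 18 and 19 of 19 markers called higher than in young. Oligodendrocyte markers were higher for 10 and 11 of 12 and astrocyte markers for 5 of 11 in each group. Blood markers were higher for 2 and 4 of 4, with median log2 fold changes of 0.93 and 1.47 and sums of 143 to 346 CPM in young, 130 to 2274 in early-induced and 275 to 719 CPM in late-induced animals. Of 11 neuronal markers tested, 1 was called higher and 1 lower in early-induced and 4 lower in late-induced animals. Neuronal markers summed to 11800 to 13037 CPM in young, 10696 to 12785 in old early-induced and 11190 to 12118 CPM across old late-induced inputs. Across the 29 inputs, after group and sex means were removed, Sorl1 had a Pearson r of 0.73 with the neuronal sum, -0.69 with the blood sum and -0.55 with the choroid plexus sum, as a description over libraries that share these sums. App, Adam10 and Bace1 were alike, with r of 0.71, 0.67 and 0.63 for neurons and -0.60, -0.64 and -0.58 for choroid plexus. Mme and Ide had weaker values of the same signs, and Psen2 and Ncstn had the opposite signs. With the blood sum Bace1 had an r of -0.81 and Mme -0.51, and the other members tested lay from -0.40 to 0.32. The blood sum of 2274 CPM was that of old early-induced replicate 5, and no other input exceeded 719 CPM. That library was the lowest of its group for Bace1, Mme and Sorl1, and r was not computed without it. The part of these markers in the age differences of Sorl1, Mme and Bace1 was not tested.

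**Figure D3:**
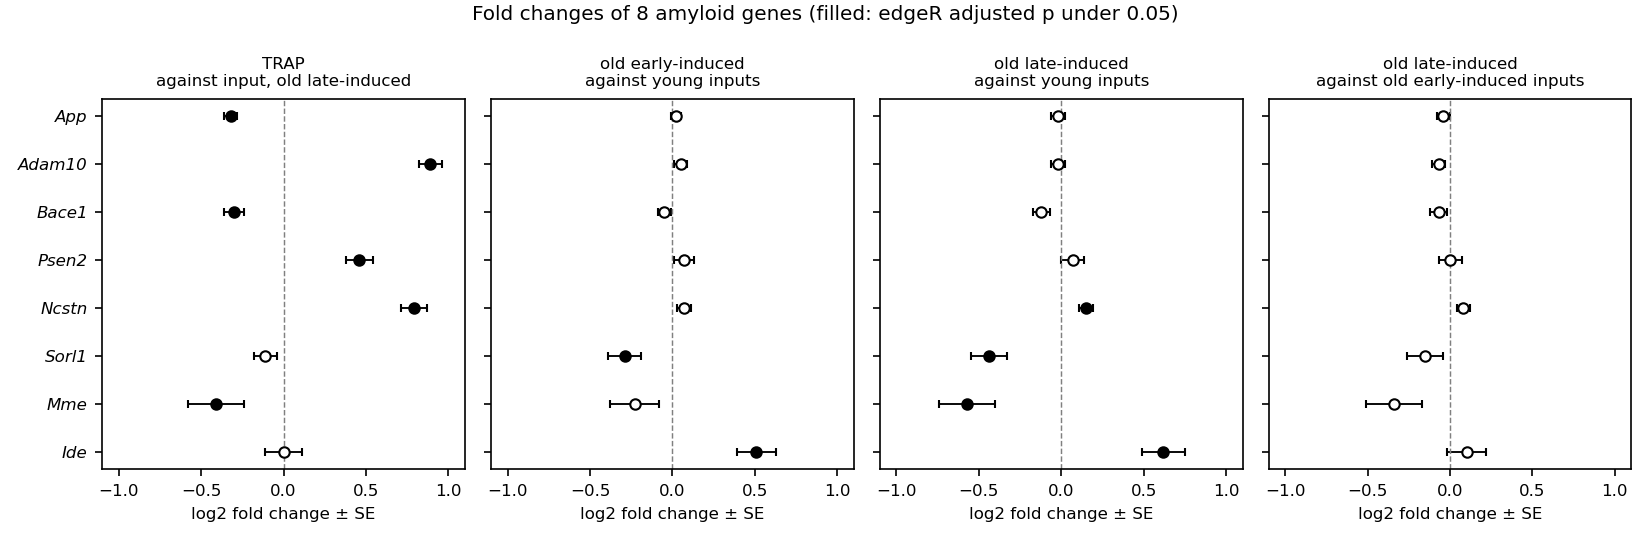
Log2 fold change with its SE (x axis) of the 8 members tested (y axis) in 4 comparisons, where filled points have an edgeR adjusted p under 0.05. Adam10 and Ncstn have the largest positive values in TRAP, Ide the largest positive value with age at 0.51 and 0.62, and no member is called between the old groups.

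Ide had the largest age difference of the members in both old groups. Young inputs ran from 31.8 to 65.9 CPM (median 40.6), old early-induced inputs from 52.0 to 84.2 CPM (median 65.9) and old late-induced inputs from 54.5 to 81.1 CPM (median 74.8). The log2 fold changes were 0.51 ± 0.12 (SE, edgeR adjusted p 0.00127) and 0.62 ± 0.13 (SE, edgeR adjusted p 0.00054), called in each alternative fit that was run.

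The young libraries did not form a single level of Ide. Replicates 3 to 8 ran from 31.8 to 41.3 CPM, below every old library, while replicates 1, 2, 9 and 10 ran from 58.7 to 65.9 CPM, among the values of old early-induced animals. Females and males were found at both levels. The 6 libraries with low Ide had consecutive young indexes in the sample sheet, 43 to 53, and the 4 with high Ide had 39, 41, 55 and 57. The widest gap between neighbouring values was 17.4 CPM in the young inputs, against 7.44 and 8.10 CPM in the old input groups. The 6 young libraries with low Ide were thus the ones outside the range of all old inputs.

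A gene nearby was split in the same way. Ide was compared with 10595 genes of an average log2 CPM over 3 across the 29 inputs, after group and sex means were removed. Among them Btaf1, a regulator of the TATA-binding protein on the same chromosome (chromosome 19, 36926079 to 37014057), was most like Ide. Its Pearson r was 0.83, against 0.70 for the next gene of this set, Mon1b. Outside this set, 4931408D14Rik, 5 kb from Ide and at a mean of only 1.22 CPM in the inputs, had an r of 0.81. Btaf1 lies 255 kb from Ide. It ran from 35.9 to 44.5 CPM in the 6 young libraries with low Ide and from 54.4 to 56.5 CPM in the 4 with high Ide, without overlap. Btaf1 was not called with age (log2 fold change 0.08 and 0.05, edgeR adjusted p 0.547 and 0.753). The comparison with neighbours was chosen after the Ide values were seen, and DNA copy number or genotype at this locus was not measured here, so its part in the levels of Ide was not tested.

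**Figure D4:**
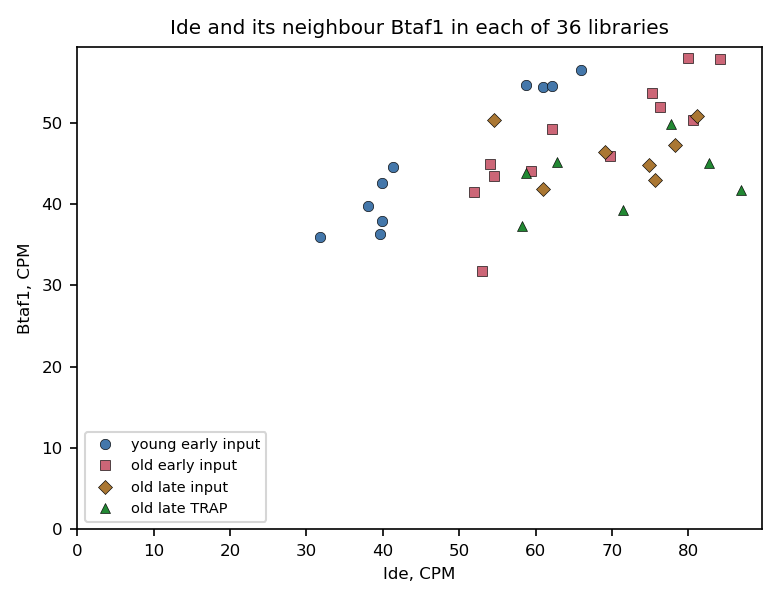
CPM of Ide (x axis) against CPM of its neighbour Btaf1 (y axis) in each of the 36 libraries, with a symbol for each group. The 10 young inputs form a cluster of 6 with Ide from 31.8 to 41.3 CPM and a cluster of 4 with Ide from 58.7 to 65.9 CPM, and the cluster with high Ide is also higher in Btaf1.

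Induction age was compared between the old inputs. No member of 8 was called in late-induced against early-induced animals by edgeR, DESeq2 or limma voom, beside edgeR calls for 0.0334% of all genes tested (5 of 14948, 0.0268% higher and 0.00669% lower). At an unadjusted p under 0.05 there were Ncstn (log2 fold change 0.08, p 0.0455) and Mme (-0.34, p 0.0493) in the edgeR fit, as for 1736 of all genes. Without old early-induced replicates 2 and 5, a choice made after the values were seen, 899 of all 14901 genes tested were called. Among them Bace1 (-0.11, edgeR adjusted p 0.0265) and Sorl1 (-0.24, edgeR adjusted p 0.0403) were lower in late-induced animals. The libraries left out were the lowest of their group for both genes. In the main fit, then, the age differences of Mme and Ncstn, called against young in the late-induced group alone, were not shown to differ between the induction ages.

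Between sexes 0 of 8 members were called by edgeR, DESeq2 or limma voom, beside edgeR calls for 0.174% of all genes (0.0468% higher and 0.127% lower in males), and Sorl1 had the smallest unadjusted p (log2 fold change of males against females -0.22 ± 0.09 SE, p 0.0178). In the interaction of age and sex 0 of 14547 genes were called by edgeR (19 by DESeq2, none of them a member), and Sorl1, Bace1 (-0.23, unadjusted p 0.0118) and Adam10 (-0.16, unadjusted p 0.0445) were under an unadjusted p of 0.05, as were 2272 of all genes. Without old early-induced replicate 6 the interaction of Sorl1 was called at -0.60 (edgeR adjusted p 0.0499).

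Members also varied together between libraries. Across the 29 inputs, with group and sex means removed, Bace1 and Sorl1 had a Pearson r of 0.90, App and Sorl1 0.83 and App and Bace1 0.68, while Ncstn and Ide had an r of -0.13. The genes most like each member were Kif5a (0.87) and Chrm3 (0.85) for App, Itch (0.86) for Adam10, and Prepl (0.95) and Fam115a (0.93) for Bace1. For Sorl1 they were Rnf157 and Wdr7 (0.96 each), for Mme Rusc2 (0.75) and D8Ertd82e (0.74), for Psen2 Etfdh (0.77) and Sil1 (0.71), and for Ncstn Atp5b (0.72) and Slc30a5 (0.64). These values describe libraries that share depth and tissue composition. Old early-induced replicate 5, the lowest of its group for Bace1 and Sorl1, is among them.

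The rest of the pathway was taken from 5 lists, which do not contain the members. Their counts stand beside 30.4% of all genes called higher and 28.8% called lower in TRAP. Against young inputs the all-gene shares were 13% higher and 12.6% lower in early-induced, and 17% and 17.5% in late-induced animals. A list count near these shares does not set the list apart. Of the 11 other secretases and modulators, 7 were higher and 2 lower in TRAP (median log2 fold change 0.52). Pion, which encodes the gamma-secretase activating protein Gsap, was higher by 1.55 ± 0.19 (SE, edgeR adjusted p 2.6e-06), from 6.58 ± 1.18 to 20.1 ± 7.87 CPM (SD, n = 7 each). With age 2 were higher and 1 lower in each old group, with Psenen at 0.18 and 0.24 (edgeR adjusted p 0.0119 and 0.00231). Tmed10, a trafficking protein that modulates gamma-secretase, was at 0.12 in early-induced animals (edgeR adjusted p 0.00253), and Aph1b at -0.22 in late-induced animals (edgeR adjusted p 0.00091). In females only Psenen lost both calls (0.12 and 0.16, edgeR adjusted p 0.278 and 0.102) and Tmed10 lost its early-induced call (0.09, edgeR adjusted p 0.202). Psenen also lost its early-induced call without old early-induced replicates 2 and 5 (0.14, edgeR adjusted p 0.0647).

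Of 14 genes of the App family, adaptors and inhibitors, 3 were higher and 8 lower in TRAP (median -0.19), where the App homologues Aplp1 and Aplp2 were among those lower. Itm2b, whose product binds the precursor and limits its cutting, was higher in TRAP, from 803 ± 34.9 to 1775 ± 364 CPM (SD, n = 7 each; log2 fold change 1.13 ± 0.10 SE, edgeR adjusted p 2.97e-08), and so was the adaptor Apba3 (0.45, edgeR adjusted p 7.55e-05). With age 3 were higher in early-induced and 4 higher and 1 lower in late-induced animals. They included Itm2b (0.11 and 0.13, edgeR adjusted p 0.00255 and 0.00114), Aplp1 in early-induced animals (0.09, edgeR adjusted p 0.00181) and, lower in late-induced animals, Apba2 (-0.17, edgeR adjusted p 0.00178). The early-induced call of Itm2b was lost in females only (0.09, edgeR adjusted p 0.111).

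Of 17 sorting receptors, retromer and endocytosis genes, 8 were higher and 3 lower in TRAP (median 0.12). Picalm and Cd2ap, endocytic adaptors, were highest, at log2 fold changes of 1.40 ± 0.05 and 1.50 ± 0.08 (SE, edgeR adjusted p 2.53e-13 and 7.38e-11), Picalm from 133 ± 4.45 to 354 ± 33.7 CPM (SD, n = 7 each). With age 1 was higher and 3 lower in early-induced, and 2 higher and 4 lower in late-induced animals. The Sorl1 relative Sorcs2 was lower by -0.17 and -0.27 (edgeR adjusted p 0.0483 and 0.0053) and the sorting adaptor Gga3 by -0.13 and -0.18 (edgeR adjusted p 0.0356 and 0.00981). The early-induced calls of both were lost without several single libraries, for example without young replicate 4 (edgeR adjusted p 0.0957 and 0.0664). In females only the calls of both were lost in each old group, with Sorcs2 at -0.04 and -0.13 (edgeR adjusted p 0.753 and 0.192) and Gga3 at -0.08 and -0.15 (edgeR adjusted p 0.389 and 0.0632).

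Of 13 degrading enzymes tested, with Plg below the filter, 5 were higher and 2 lower in TRAP (median 0.40). Plau, the urokinase that activates plasminogen, rose from 3.68 ± 0.696 to 43.3 ± 21.6 CPM, and the lysosomal protease Ctsd from 656 ± 92.0 to 6348 ± 2255 CPM (SD, n = 7 each), at log2 fold changes of 3.48 and 3.23 (edgeR adjusted p 5.37e-10 and 1.64e-11). Both also rose with age in the inputs, Plau by 0.68 and 0.69 (edgeR adjusted p 0.00158 and 0.00282) and Ctsd by 0.35 and 0.65 (edgeR adjusted p 0.000245 and 1.79e-07). Microglial markers rose in the same inputs, by median log2 fold changes of 0.43 and 0.59, and their part in these rises was not tested. In each old group 3 of the 13 were higher and 1 lower.

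Of 13 carriers and receptors tested in TRAP, with Ager below the filter, 6 were higher and 4 lower (median -0.02). The lipid exporter Abca1 was higher by 1.46 ± 0.08 and the protease inhibitor Cst3 by 2.23 ± 0.08 (SE, edgeR adjusted p 1.15e-10 and 2.43e-13). With age 4 of 14 were higher and 2 lower in early-induced, and 5 higher and 2 lower in late-induced animals. Apoe, the main lipid carrier of the brain, rose by 0.28 in early-induced animals (edgeR adjusted p 0.000267), a call lost in females only (0.20, edgeR adjusted p 0.0504). A2m, a protease inhibitor, was higher by 1.25 in late-induced animals (edgeR adjusted p 0.0239), a call lost without old late-induced replicate 6 (0.90, edgeR adjusted p 0.1) or replicate 5 (1.14, edgeR adjusted p 0.0519) and in females only (1.34, edgeR adjusted p 0.114).

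**Figure D5:**
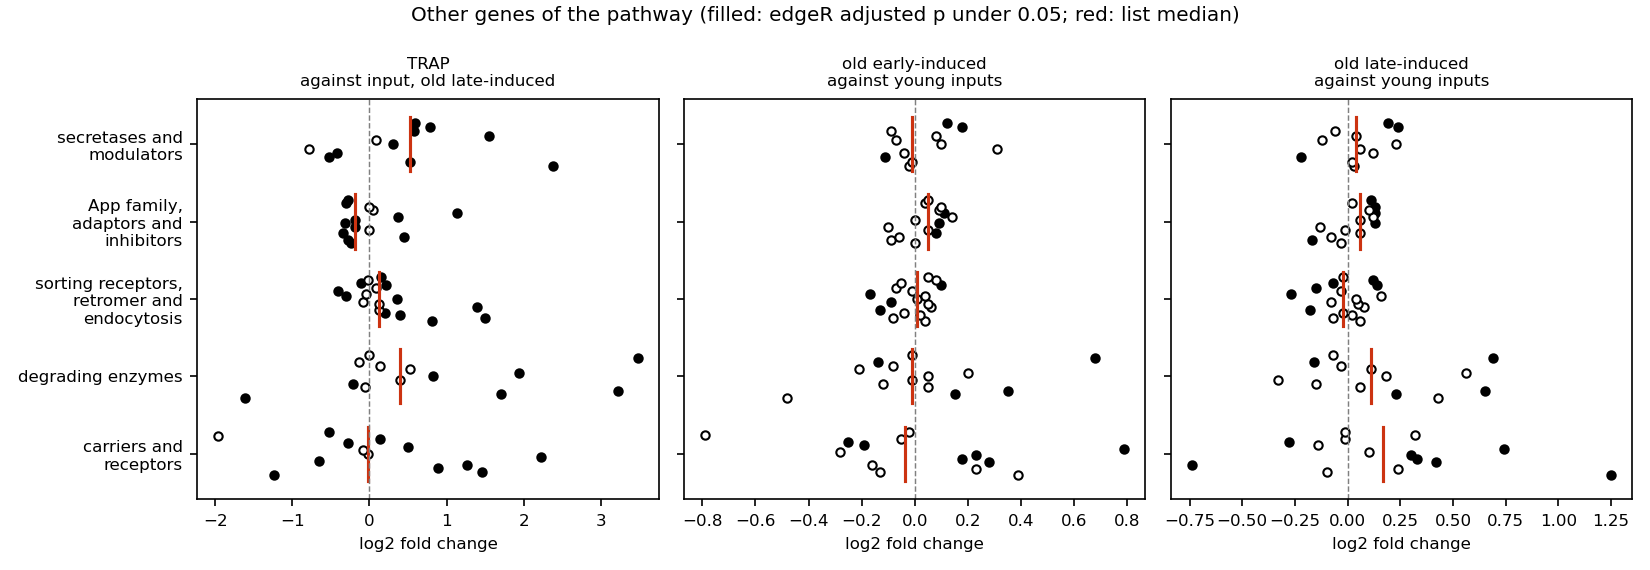
Log2 fold change (x axis, a scale for each panel) of each gene tested in 5 pathway lists (y axis) in 3 comparisons, where filled points have an edgeR adjusted p under 0.05 and red lines are list medians. In TRAP the degrading enzymes reach 3.48 and the secretases and modulators 2.38, and the red median of the App family, adaptors and inhibitors lies at -0.19.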

How the data were processed

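Sequencing was of polyA RNA from mouse hippocampus, as whole-tissue input or as the TRAP fraction. The authors deposited a table of estimated counts per gene, with a raw column for each of the 36 libraries per the file headers, and 77.2% of nonzero values were not whole numbers (tolerance 1e-06). The submitters' processing notes name mm10 and DESeq2 without saying how they were used. Aligner, counter and strand handling are not given in the sources used here, and counts of overlapping genes or near-identical copies are uncertain. Gene positions are printed as deposited, and 32891 identifiers matched RefSeq on GRCm38.p6 (chromosome equal for 100%, start no more than 1 kb apart for 91.2%).

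Groups, sex and animal came from the labels. Counts were rounded and tested with edgeR 4.0.16 in R 4.3.3 (filterByExpr with a minimum count of 10, TMM, glmQLFit, glmQLFTest) with Benjamini-Hochberg adjustment over all genes tested. SEs were derived from the F statistic. TRAP against input used 14 libraries adjusted for sex. All 29 inputs entered 1 fit (terms for group and sex) that gave the age, induction and sex comparisons, and the interaction from the 22 early-induced inputs. Input and TRAP libraries of the same animal are paired by the animal number in the labels, and in all 7 pairs their deviations from the group means were correlated across genes (r 0.308 to 0.47). Inputs are of separate animals. CPM were TMM-scaled over all 36 libraries, log2 CPM used a prior count of 2, and levels per kb used union exon lengths of GENCODE annotation. The count test was also run on simulated independent libraries with few changed genes. That setting is unlike the paired TRAP comparison, and its outcome is not given here. Depth limits counting precision, and library complexity was not examined.

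The members and the gene lists were chosen with earlier results of these data known, and the lists are not independent support. Of 176 list entries 175 were matched, 3 of them by identifier. Named genes were the members, the 2 called genes with the largest absolute log2 fold change per pathway list in each of the TRAP and age comparisons, and the 2 genes most like each member (average log2 CPM over 3). Results of 3 genes that this rule or the gene lists held are not reported here. Alternatives were upper quartile scaling, total counts, no filter, DESeq2 1.42.0, limma 3.58.1 voom, no sex term, females only, the compared groups only, the animal as a block, and each library left out in turn.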

Additional observations from a re-analysis of the deposited data

How the results depend on the processing

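No called fold change of a member or named pathway gene changed direction among the fits run. Some uncalled values near 0 changed sign, for example in females only, where early-induced against young was -0.03 for Psen2 and 0.06 for Bace1, and late-induced against young was 0.04 for App. Over all alternatives of the members' values 1541 stayed on their side of the threshold, 21 lost and 10 gained a call, and of the named pathway genes' values 939 stayed and 41 lost a call. The members called in old early-induced against young inputs went from 2 to 1, with Sorl1 lost, without the sex term (Sorl1 -0.25, edgeR adjusted p 0.0688), in females only, and without old early-induced replicates 2 and 5, which was added after the values were seen. Leaving out 1 library gave 1 to 2 members there, 5 to 6 in TRAP against input, 4 to 5 in old late-induced against young inputs, 0 between induction ages and sexes, and 0 to 1 (Sorl1) in the interaction of age and sex. In old late-induced against young inputs females only gave 2 (Ide and Sorl1), from fewer libraries. Between induction ages 2 members (Bace1 and Sorl1) were called without old early-induced replicates 2 and 5.

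In TRAP against input Mme also lost its call without a filter (edgeR adjusted p 0.0937), without the sex term (0.0565), in females only (0.12) and in limma voom (0.0582). With the animal as a replicate block the count of members called was again 6, with Mme lost and Sorl1 gained, and 9330 genes were called in place of 8640. No other member's call changed with the block.

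Counts over all genes moved by more than 1.5 times in females only, to 1198 of 3826 in early-induced and 2787 of 5151 in late-induced animals against young. Between induction ages the count of 5 became 58 with DESeq2, 182 in females only, 0 with the compared groups only, 899 without old early-induced replicates 2 and 5, and 0 to 164 with 1 library left out (0 without old late-induced replicate 2, 3 or 4, 76 and 164 without old early-induced replicates 2 and 5 in turn, 29 without replicate 10). The 26 genes between sexes became 63 with DESeq2 and 17 without old late-induced replicate 2, and the 0 of the interaction became 19 with DESeq2 and 523 without old early-induced replicate 6. The cause of these shifts was not tested. Depth limits Mme most, at 21 to 92 counts per library.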

Other observations

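Other genes beside Ide on chromosome 19 also varied with it or with age. Of 11 tested genes within 500 kb, chosen after the values of Ide were seen, 4931408D14Rik (5 kb away, Pearson r 0.81 across the 29 inputs after group and sex means were removed) and Fgfbp3 (349 kb away, 0.60) were the most like Ide after Btaf1. The other 8 had r from -0.23 to 0.31. Fgfbp3, a carrier of fibroblast growth factors, rose with age by 0.54 ± 0.12 in early-induced and 0.76 ± 0.14 in late-induced animals (log2 fold change ± SE, edgeR adjusted p 0.00168 and 0.000103). It ran from 5.16 to 9.01 CPM in the 6 young libraries with low Ide and from 7.61 to 12.8 CPM in the 4 with high Ide, and these ranges overlapped. 4931408D14Rik, at a mean of 1.22 CPM in the inputs, rose by 1.38 and 1.68 (edgeR adjusted p 0.0046 and 0.00136), and Hhex, a transcription factor gene 104 kb away with an r of -0.20, rose by 0.72 and 0.85 (edgeR adjusted p 0.0206 and 0.011). The genes between Btaf1 and Ide did not all share its pattern: Cpeb3, 61 kb from Ide, had an r of 0.31 and was not called with age (-0.02 and -0.12, edgeR adjusted p 0.782 and 0.06).

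No member had a library far from the rest of its group by Dixon's ratio in 24 sets of 7 or 10 libraries, where chance would give about 1.2, and the 12 old early-induced inputs were not examined in this way.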
